A study of Schizosaccharomyces pombe with 12 samples.

Results

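Haem is made by a chain of enzymes that starts and ends in the mitochondrion and passes through the cytosol. The first joins glycine and succinyl-CoA to 5-aminolevulinate, later ones close and trim the porphyrin ring, and the last inserts iron. Coproporphyrinogen oxidase, encoded by hem13, uses molecular oxygen as a reactant, so the pathway needs air as well as iron, and its product serves respiration, sterol synthesis and catalase. The 7 genes described here are hem1 (SPAC2F3.09.1), hem2 (SPAC1805.06c.1), hem3 (SPAC24B11.13.1), hem12 (SPCC4B3.05c.1), hem13 (SPAC222.11.1), hem14 (SPAC1F5.07c.1) and hem15 (SPCC320.09.1), taken by ID from 5136 rows in each of 2 count tables. The set was chosen by the footprint fold change of hem13, already known from these data, with the other enzymes of the pathway added. Footprint values between genotypes are therefore given for these genes as a description, with no test.

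Cells of 2 genotypes, delta4dus and wild type, were taken in mid-log growth from the fission yeast Schizosaccharomyces pombe. The name delta4dus is read as a strain without the 4 dihydrouridine synthase genes dus1 to dus4, whose enzymes reduce uridine to dihydrouridine in RNA. How the genes were deleted, the rest of the strains' genotypes and the growth medium are not given in the labels used here. Each genotype has 3 footprint libraries (monosome-protected fragments of 28 to 32 nt) and 3 total RNA libraries, 12 libraries in all, with letters A to C. Replicates are not said to be separate cultures, so p-values measure the spread between these samples, which may be technical.

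Footprint libraries held 1747608 to 2591755 counts in delta4dus, against 601969 to 1725344 counts in wild type, and total RNA libraries held 1886954 to 2199320 counts in delta4dus, against 1900650 to 2033890 counts in wild type. As a check of the labels, summed footprint counts were 0 in delta4dus against 128 in wild type for dus1, 14 against 71 for dus2, 2 against 263 for dus3 and 35 against 49 for dus4. These are raw counts from libraries of unequal depth. In footprint CPM, every delta4dus library lay below every wild-type one for all 4 genes. The dus4 footprints were 6, 7 and 22 counts in delta4dus against 24, 9 and 16 in wild type. They and the 14 counts left in dus2 go against a complete absence of these 2 genes. How much of each gene was removed is not given in the labels used here. In the total RNA table the sums were 226 in delta4dus against 133 in wild type for dus1, the other way round, 61 against 87 for dus2, 32 against 139 for dus3 and 333 against 388 for dus4. Across 5103 protein-coding rows, total RNA and footprint levels of wild type were inversely ordered (Spearman rho -0.197, across genes, which are not independent replicates). In 1919 rows the exons overlap a gene of the opposite strand. There the total RNA row followed the opposite gene's footprints per kb multiplied by the overlap length (rho 0.70). Against the row's own footprint CPM, without such a length term, rho was -0.227, so the 2 values are not like measures. Total RNA rows are therefore given below as rows of the table, not as mRNA levels.

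Values per library are given as CPM, counts scaled by TMM-adjusted library totals, and levels of different genes are compared per kb of coding length. Each fold change is a log2 ratio, delta4dus over wild type. All 7 genes passed the filter on low counts in both tables. They lie on chromosome I, except hem12 and hem15 on chromosome III, and have coding lengths of 939 bp (hem13) to 1677 bp (hem1). Hem12 has 5 coding exons, hem15 has 3 and the others have 1. The step between hem3 and hem12, uroporphyrinogen-III synthase (hem4), is not among the 7 and is given with the related genes.

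Hem13 had the highest footprint level of the pathway in both genotypes and the largest difference of the 7 between them. It had 193, 189 and 214 CPM in delta4dus libraries A, B and C, against 890, 876 and 931 CPM in wild type. The groups lay far apart, with delta4dus at 22.1% of the wild-type mean (log2 fold change -2.17, SE 0.062, n = 3 each). Among the 4505 genes tested in footprints, it stood at place 18 counted from the most negative fold change.

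The first enzyme, 5-aminolevulinate synthase (hem1), commits glycine and succinyl-CoA to the pathway. Its footprints were at 160, 173 and 166 CPM in delta4dus, against 287, 288 and 281 CPM in wild type. The 3 delta4dus libraries were all lower, by a smaller step than for hem13 (log2 fold change -0.78, SE 0.0759). Ferrochelatase (hem15), the last enzyme, which puts iron into protoporphyrin, had 18.1, 20.8 and 24.5 CPM in delta4dus, against 43.3, 43.7 and 47.0 CPM in wild type. Its groups did not overlap either, with delta4dus at 47.3% of the wild-type mean (log2 fold change -1.05, SE 0.193), on only 127 counts in delta4dus and 146 in wild type.

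The enzymes between hem1 and hem13 showed small differences. Porphobilinogen synthase (hem2), which joins aminolevulinate molecules into a pyrrole, had 173, 176 and 206 CPM in delta4dus, against 205, 217 and 214 CPM in wild type. Delta4dus replicate C lay within the wild-type range (log2 fold change -0.17, SE 0.0823). Hydroxymethylbilane synthase (hem3), which links the pyrroles into a chain, had 116, 109 and 97.1 CPM in delta4dus, against 128, 120 and 122 CPM in wild type. The delta4dus libraries were lower by a narrow margin (log2 fold change -0.23, SE 0.105). Uroporphyrinogen decarboxylase (hem12), which makes the substrate of hem13, had 94.2, 99.0 and 78.4 CPM in delta4dus, against 127, 140 and 101 CPM in wild type. The highest delta4dus library nearly reached the lowest wild-type one (log2 fold change -0.45, SE 0.113).

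Hem14, protoporphyrinogen oxidase, takes the product of hem13 and in budding yeast also passes electrons to oxygen. It was the only one of the 7 with a higher mean in delta4dus, at 35.6, 27.1 and 35.7 CPM, against 27.4, 29.6 and 30.2 CPM in wild type. The groups overlapped (log2 fold change 0.20, SE 0.198, on 194 counts in delta4dus and 94 in wild type). The 2 consecutive oxidases thus had fold changes of -2.17 and 0.20. The whole hem14 gene (1726 bp) lies under lsh1 on the opposite strand in the reference annotation, and no strand setting is given for the counting. How far reads of lsh1 enter the hem14 row can therefore not be told. The lsh1 row had 224, 281 and 322 footprint counts in delta4dus, against 271, 99 and 127 in wild type (log2 fold change -0.10).

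**Figure D1:**
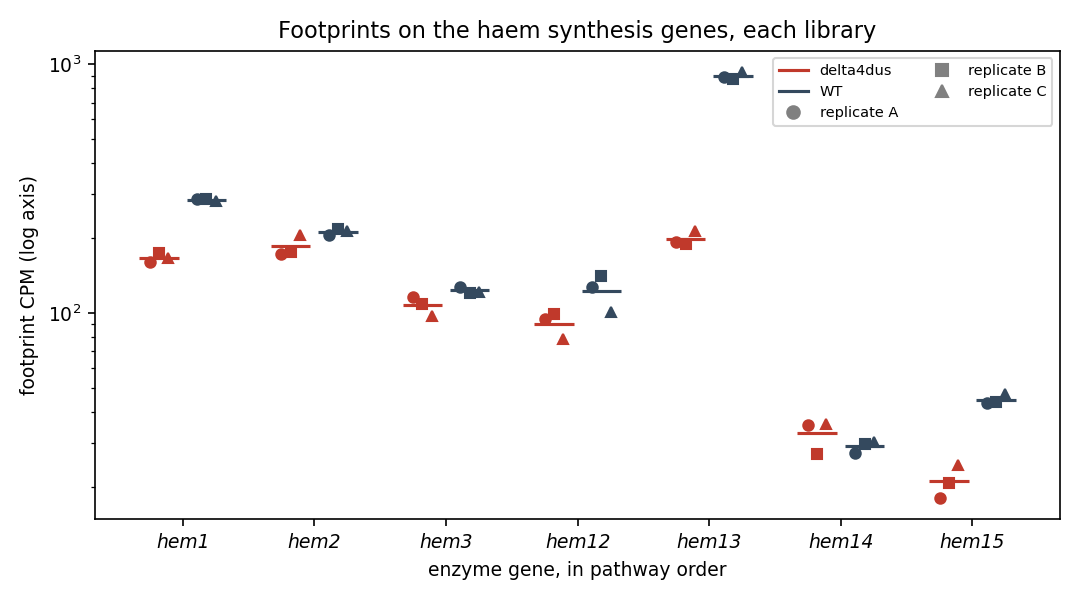
Footprint CPM (log axis) of the 7 haem synthesis genes in pathway order, with delta4dus (red) left of wild type (dark), 1 symbol per library and bars for the means. Hem13 stands at 189 to 214 CPM in delta4dus and 876 to 931 CPM in wild type, while the genotypes overlap for hem2 and hem14.

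In 5 of the 7 genes every delta4dus library was lower than every wild-type library, as in 19.8% of all genes tested. Since hem13 footprints brought the pathway forward, nothing is read from that count. The median log2 fold change was -0.34 for the 6 genes other than hem13, with a range of -1.05 to 0.20, and -0.03 for all genes tested. Summed over those 6 genes, footprints came to 597, 604 and 608 CPM in delta4dus, against 816, 839 and 795 CPM in wild type. The 7 together had 790, 793 and 822 CPM in delta4dus, against 1706, 1715 and 1726 CPM in wild type.

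**Figure D2:**
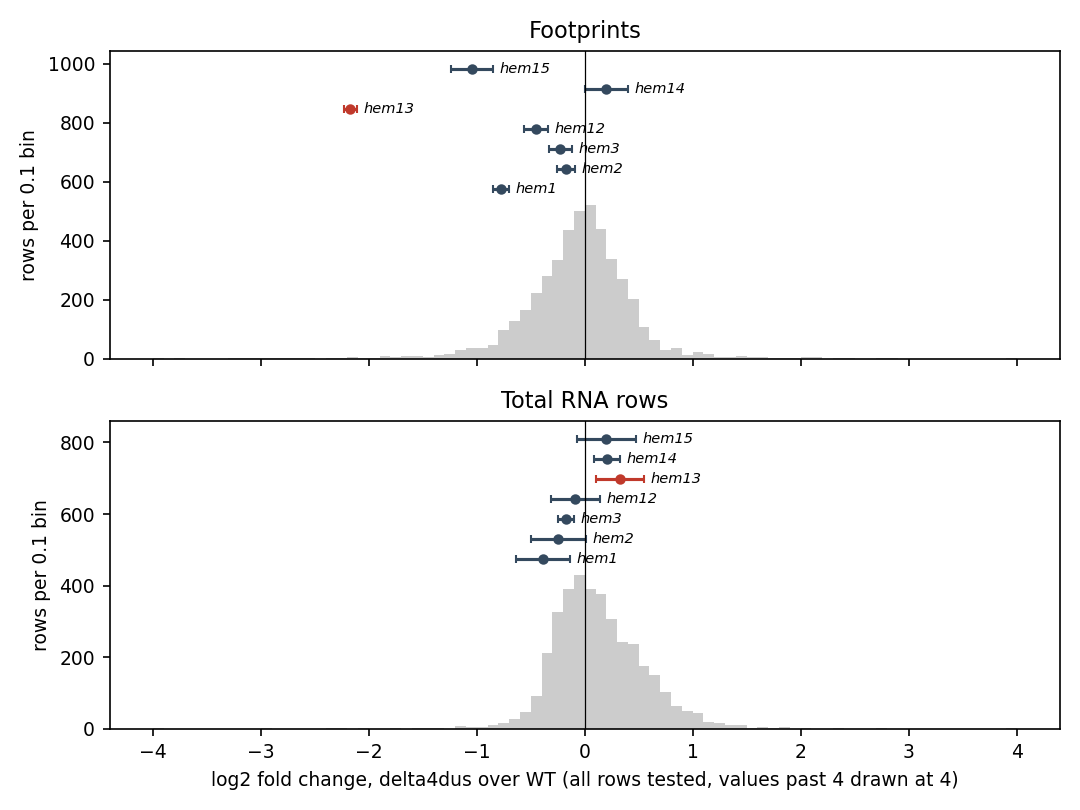
Log2 fold changes (delta4dus over wild type) of the 7 genes with standard errors (points, pathway order from bottom to top, height without meaning) over the histogram of all rows tested, for footprints above and total RNA rows below. In footprints hem13 is at -2.17, outside the bulk of genes, and in total RNA the 7 rows lie between -0.39 and 0.33.

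Shares within a library do not depend on how libraries are scaled to each other. Hem13 took 24.4% of the footprint counts of the 7 genes in delta4dus replicate A (95% interval 22.1% to 26.9%), 23.8% in B (21.7% to 26.1%) and 26.0% in C (24.1% to 28.0%). In wild type the share was 52.2% in replicate A (50.4% to 53.9%), 51.1% in B (48.1% to 54.1%) and 53.9% in C (51.3% to 56.6%). These exact binomial intervals cover counting error only and describe each library. The mean share was 24.7% ± 1.13 in delta4dus and 52.4% ± 1.44 in wild type (SD, n = 3 each).

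Ratios between enzymes were also taken within each library. There were 1.11, 1.08 and 1.04 hem13 footprints per hem2 footprint in delta4dus, against 4.34, 4.04 and 4.36 in wild type. Per hem14 footprint there were 5.42, 6.96 and 5.99 hem13 footprints in delta4dus, against 32.5, 29.6 and 30.9 in wild type. The hem13 to hem15 ratio moved less, with 10.7, 9.10 and 8.73 in delta4dus against 20.6, 20.1 and 19.8 in wild type, and hem15 was itself lower in delta4dus. Between genes other than hem13, the hem3 to hem2 ratio averaged 0.586 ± 0.103 in delta4dus and 0.583 ± 0.036 in wild type. The hem1 to hem2 ratio averaged 0.905 ± 0.0915 in delta4dus and 1.35 ± 0.0438 in wild type, and the hem15 to hem2 ratio 0.114 ± 0.00816 in delta4dus and 0.211 ± 0.00945 in wild type. The hem12 to hem2 ratio averaged 0.496 ± 0.10 in delta4dus and 0.580 ± 0.0924 in wild type, and the hem14 to hem2 ratio 0.178 ± 0.0255 in delta4dus and 0.137 ± 0.00380 in wild type. Against hem2, the library values of hem3 and hem12 thus overlapped between genotypes. Those of hem1 and hem15 were lower, and those of hem14 higher, in every delta4dus library than in any wild-type one. The wild-type hem14 ratios rest on only 50, 19 and 25 hem14 counts in A, B and C, and no counting interval was taken.

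**Figure D3:**
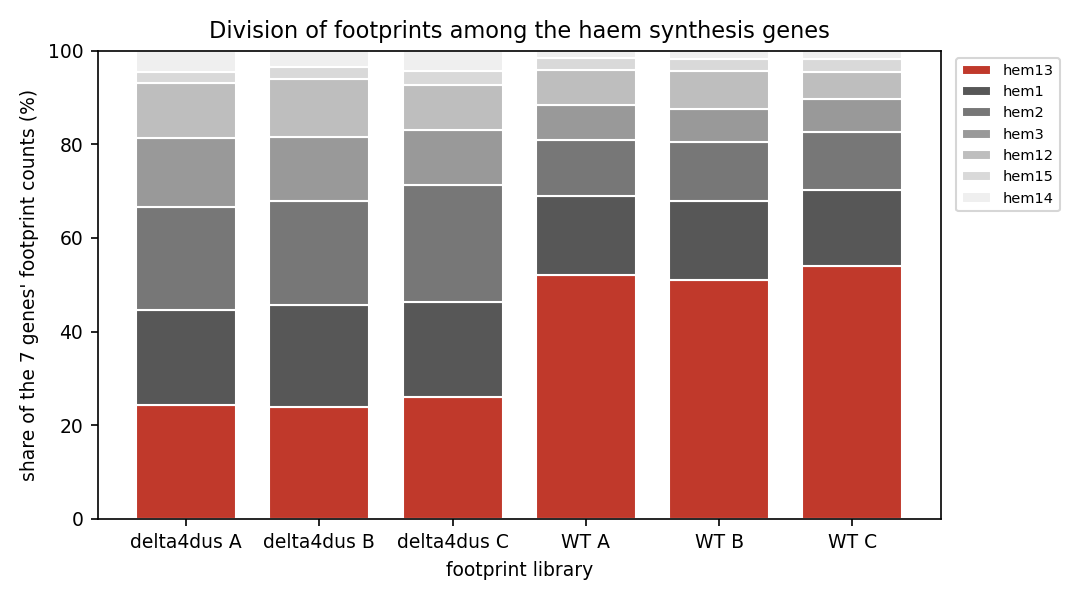
Division of the footprint counts of the 7 genes (100% per library) in the 3 delta4dus libraries, left, and the 3 wild-type libraries, right. The hem13 segment (red) takes 23.8% to 26.0% in delta4dus and 51.1% to 53.9% in wild type.

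Per kb of coding length, the order of footprint levels in delta4dus was hem13 (211 ± 14.2 CPM per kb), hem2 (187 ± 18.5), hem3 (106 ± 9.42), hem1 (99.3 ± 4.11), hem12 (83.8 ± 9.95), hem14 (22.3 ± 3.32) and hem15 (16.6 ± 2.53). In wild type it was hem13 (958 ± 30.5 CPM per kb), hem2 (214 ± 6.18), hem1 (170 ± 2.29), hem3 (122 ± 3.93), hem12 (114 ± 18.3), hem15 (35.1 ± 1.63) and hem14 (19.7 ± 0.995), all SD with n = 3. In delta4dus the library ranges of hem13 and hem2 overlapped, as did those of hem3 and hem1 and of hem14 and hem15. In wild type hem13 stood clear of hem2, and hem3 and hem12 were the only neighbours whose ranges overlapped. Among the 5107 rows with a coding length, hem13 ranked 669 in delta4dus and 223 in wild type, counted from the highest level. Hem15 ranked 3149 in delta4dus and 2257 in wild type.

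The total RNA table was compared next, since its libraries had no part in the choice of these genes. None of the 7 rows passed (edgeR quasi-likelihood, adjusted p under 0.05), where 22.9% of all 3791 rows tested did. One row, hem3, had an unadjusted p under 0.05, and DESeq2 called none of the 6 for which it gave an adjusted p, which leaves out hem15. Hem13 had 40, 35 and 48 counts in delta4dus, against 31, 29 and 25 in wild type (log2 fold change 0.33, SE 0.223, adjusted p = 0.323). Every delta4dus library had more hem13 counts, but in CPM the groups overlapped, at 16.9, 16.7 and 24.6 in delta4dus and 16.7, 16.0 and 13.3 in wild type.

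Hem3 had the most total RNA counts, 739, 615 and 614 in delta4dus and 696, 625 and 600 in wild type. In CPM the 3 delta4dus libraries (293 to 315) lay below the wild-type ones (320 to 375), as in 15.9% of all rows tested. Its change did not pass (log2 fold change -0.18, SE 0.0729, adjusted p = 0.0981). Without wild-type replicate C it did (log2 fold change -0.27, adjusted p = 0.0151). The rows of hem1 (-0.39, adjusted p = 0.289), hem2 (-0.25, 0.536), hem12 (-0.09, 0.833), hem14 (0.21, 0.238) and hem15 (0.20, 0.648) did not pass, and the groups overlapped in each.

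How far these rows reflect the enzymes' mRNA cannot be told from the table. In wild type the hem13 row had 1.71% as many total RNA CPM as footprint CPM, whereas the hem3 row had 282% and the hem14 row 296%. A total RNA level under 10% of the footprint level was found in hem1, hem2 and hem13, and in 862 of the 1131 protein-coding rows with at least 100 footprint CPM in wild type (76.2%). On the strand opposite to hem3 the annotation has a non-coding RNA over 1376 of its 2295 exonic bp and the gene SPAC806.02c over 457 bp. Opposite hem13 it has only 9 bp of SPAC222.17. Opposite hem12 it has a non-coding RNA over 1411 of 1578 exonic bp, yet the hem12 row had only 14.6% as many total RNA as footprint CPM in wild type. The annotation also has non-coding RNAs over parts of hem1, hem2 and hem15, whose total RNA levels were below their footprint levels too. Whether strand assignment sets the low hem13 row was not tested.

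**Figure D4:**
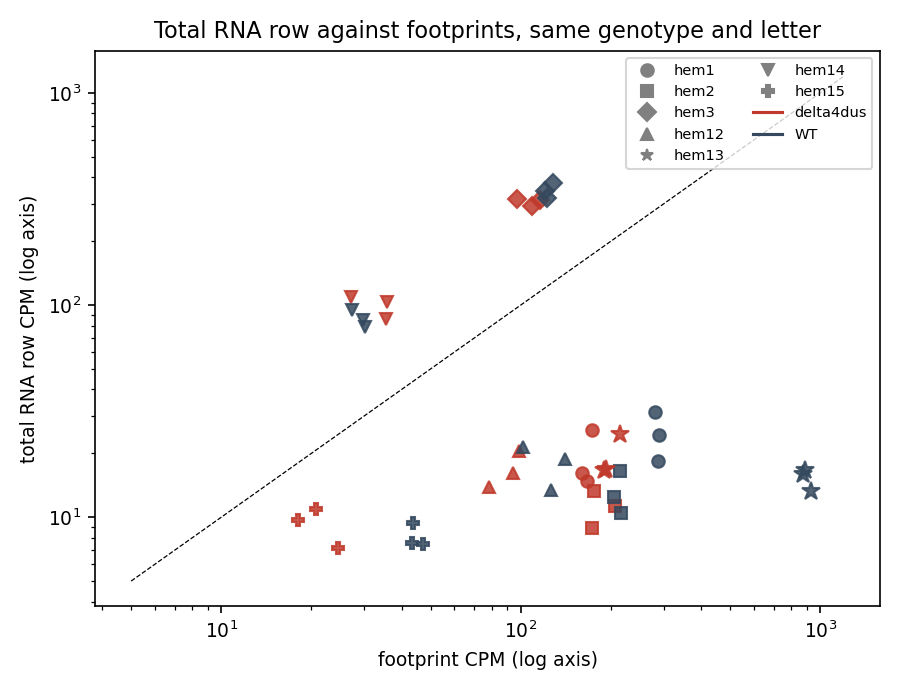
Total RNA row CPM against footprint CPM (both log axes) for the 7 genes, 1 point per genotype and replicate letter, delta4dus in red and wild type in dark, with the line of equality dashed. Hem3 and hem14 lie above the line in every library and the other 5 genes below it, hem13 of wild type furthest.

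In the authors' deposited table, hem13 has a log2 fold change of -2.09 for footprints, 0.07 for mRNA and -2.16 for translational efficiency, and it is one of 337 rows classed as translational. The other 6 enzymes are classed as none in the authors' deposited table, with translational efficiency changes of -0.91 (hem15) to 0.41 (hem2). That table does not state its direction, but its footprint signs match delta4dus over wild type for these genes. Its total RNA changes differ from those fitted here by a median of -0.261 on the log2 scale over 3682 rows. Fitted over the 12 libraries here, the hem13 ratio of footprints to the total RNA row changed by -2.47 (SE 0.215), and that of hem15 by -1.22 (SE 0.333). Both ratios are descriptions, and for hem13 the total RNA side rests on 123 counts in delta4dus and 85 in wild type. How far the total RNA rows reflect mRNA is not known. Neither these ratios nor the authors' class is therefore read here as a change in translation.

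The 5 genes whose footprints were most like those of hem13 were sought over the 6 footprint libraries, by the root mean square difference of centred log2 CPM, among 3818 genes with a mean of at least 20 counts. They were the4, an acyl-CoA thioesterase (difference 0.0944), urg2, annotated as a uracil phosphoribosyltransferase (0.113), mfm2, an M-factor pheromone precursor (0.123), SPAPB24D3.07c, uncharacterised (0.147), and fsh2, a serine hydrolase-like gene (0.201). The4 had a log2 fold change of -2.18 (SE 0.106), and urg2 had 68.4 ± 3.07 CPM in delta4dus and 357 ± 15.0 CPM in wild type (SD, n = 3 each). None is an enzyme of haem synthesis. Of the pathway, hem15 came nearest, at place 52, then hem1 at 123, hem12 at 553, hem2 at 1008, hem3 at 1044 and hem14 at 2549. This order largely restates the footprint fold changes, since the centred values mostly hold the genotype difference by which hem13 was chosen.

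Related genes were counted in 6 lists. These lists were chosen with earlier results of these data known, so their counts and adjusted p-values are given as descriptions. Genes that feed the pathway showed little difference in footprints. Of the 7 tested, 1 rose, none fell and 6 did not pass, where 14.5% of all genes tested rose and 14.1% fell. The median log2 fold change was -0.03, as for all genes. Hem4, the enzyme between hem3 and hem12, had 16.8, 27.1 and 23.2 CPM in delta4dus, against 24.1, 17.2 and 33.8 CPM in wild type (-0.15, adjusted p = 0.676). Its low counts spread widely and the groups overlapped. Serine hydroxymethyltransferase shm1, which makes glycine, was at -0.03 (adjusted p = 0.710), and shm2, of the same annotation, was at -0.09. The 2-oxoglutarate dehydrogenase genes kgd1 and kgd2, whose complex makes succinyl-CoA, were at 0.13 and 0.04 and did not pass. The mitochondrial glycine carrier hem25 was at -0.08. Lsc2, a succinyl-CoA ligase subunit, rose by 0.35 (adjusted p = 0.0385). That call was lost with DESeq2 (adjusted p = 0.153), after thinning to equal depth (0.563), with a mean of at least 50 counts required (0.0712) and without any one of delta4dus replicates A and B or wild-type replicates A and C (0.0723 to 0.168).

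Of 6 tested genes of haem uptake and of haem a or haem c assembly, 2 rose, 1 fell and 3 did not pass (median 0.24). The shares over all genes tested were 14.5% higher and 14.1% lower. Str3, annotated as a siderophore-iron transporter and known in fission yeast for haem acquisition, had 19, 20 and 23 footprint counts in delta4dus, against 1, 0 and 1 in wild type. Per library total that is 15.1 times as many (95% counting interval 4.00 to 127). Str3 passed the filter on low counts only through delta4dus. A rise was thus the only call open to it, and no p-value is given. Str3 is 1 of the 2 rises and enters the median, so neither value is read against all genes. Cyc2, annotated as a cytochrome c haem-linkage protein, rose by 0.50, a call lost after thinning (adjusted p = 0.0656), and etp1, whose Cox15 part makes haem a, fell by 0.50 on the log2 scale. Cyt2 (0.09) and arh1 (-0.02) did not pass. Cyc2, etp1, cyt2 and arh1 are named for their footprint level, and str3 because it is a call.

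Of 8 tested haem proteins and their partners, 1 rose, 4 fell and 3 did not pass (median -0.32). Of all genes tested, 14.5% rose and 14.1% fell. Cytochrome c (cyc1) had 689 ± 9.64 CPM in delta4dus and 508 ± 39.6 CPM in wild type and rose by 0.42 (adjusted p = 8.55e-09). Catalase (ctt1, -0.53), the sterol demethylase erg11 (-0.53), the P450 reductase ccr1 (-0.46) and the sphingolipid hydroxylase scs7 (-1.16) fell. The ccr1 call was lost with DESeq2 (adjusted p = 0.0748) and without wild-type replicate A (-0.29, adjusted p = 0.249). Cytochrome c1 (cyt1, -0.02), cytochrome b5 (oca8, -0.04) and the sterol desaturase erg5 (-0.17) did not pass.

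Of 12 tested biosynthetic enzymes that use oxygen, other than hem13 and hem14, 8 fell, 1 rose and 3 did not pass, where 14.1% of all genes fell and 14.5% rose. Their median was -0.51. Erg11, scs7 and erg5 also belong to the haem proteins and etp1 to the assembly genes, so the falls of erg11, scs7 and etp1 are counted in both lists. The fatty acid desaturase ole1 had 677 ± 17.8 CPM in delta4dus and 1353 ± 94.7 CPM in wild type (-0.99), and squalene epoxidase (erg1) had 285 ± 12.3 CPM in delta4dus and 557 ± 21.4 CPM in wild type (-0.96). The methylsterol oxidase erg25 had 342 ± 7.90 CPM in delta4dus and 440 ± 39.8 CPM in wild type (-0.37, adjusted p = 1.98e-06). The largest falls were those of erg31 (-1.81) and the sphingoid base hydroxylase sur2 (-1.78), named after their values were seen, and both were smaller than the hem13 difference. Erg32, a sterol desaturase of the same step as erg31, rose by 0.58, a call lost with libraries thinned to equal depth (adjusted p = 0.220), while the ubiquinone enzymes coq6 (-0.16) and coq7 (0.18) did not pass. The falls of erg1, erg31 and ole1 were known from these data when the list was made. The count of 8 falls was thus partly fixed in advance and is not read against the share over all genes.

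Regulators of the response to low oxygen and sterols were counted too. Sre1 is the membrane-bound transcription factor that activates sterol and haem synthesis genes of fission yeast when oxygen is low. Of 11 tested genes, 3 fell, 8 did not pass and none rose (median -0.14), where 14.1% of all genes fell and 14.5% rose. Sre1 had 50.6 ± 1.46 CPM in delta4dus and 114 ± 9.29 CPM in wild type (-1.17, adjusted p = 1.10e-12). Its partner scp1 fell by 0.87 on the log2 scale, a call lost after thinning (adjusted p = 0.0834), and ofd1, a prolyl hydroxylase-like regulator that promotes Sre1 breakdown, by 0.38. Nro1 (0.07) and sre2 (-0.14) did not pass, nor did any of the Dsc ligase genes dsc1 to dsc5, whose complex is needed for the cleavage of Sre1. Footprints alone do not give the active form of Sre1.

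Of 8 iron regulators, 2 rose, 2 fell and 4 did not pass (median -0.03), where 14.5% of all genes rose and 14.1% fell. Php4, which represses genes of iron-using proteins when iron is low, had 54.9 ± 7.04 CPM in delta4dus and 34.0 ± 4.52 CPM in wild type (0.73, adjusted p = 0.000494). The glutaredoxin grx4, which senses iron, rose by 0.31, the CCAAT-binding subunit php2 fell by 0.66 and the iron transporter pcl1 fell by 0.31. The pcl1 call was lost with DESeq2 (adjusted p = 0.241), after thinning (0.0967), in the fit blocked on replicate letter (0.0951) and without delta4dus replicate B or C or wild-type replicate A or C (0.0879 to 0.274). The repressor fep1 (0.28) and php5 (-0.26) did not pass.

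**Figure D5:**
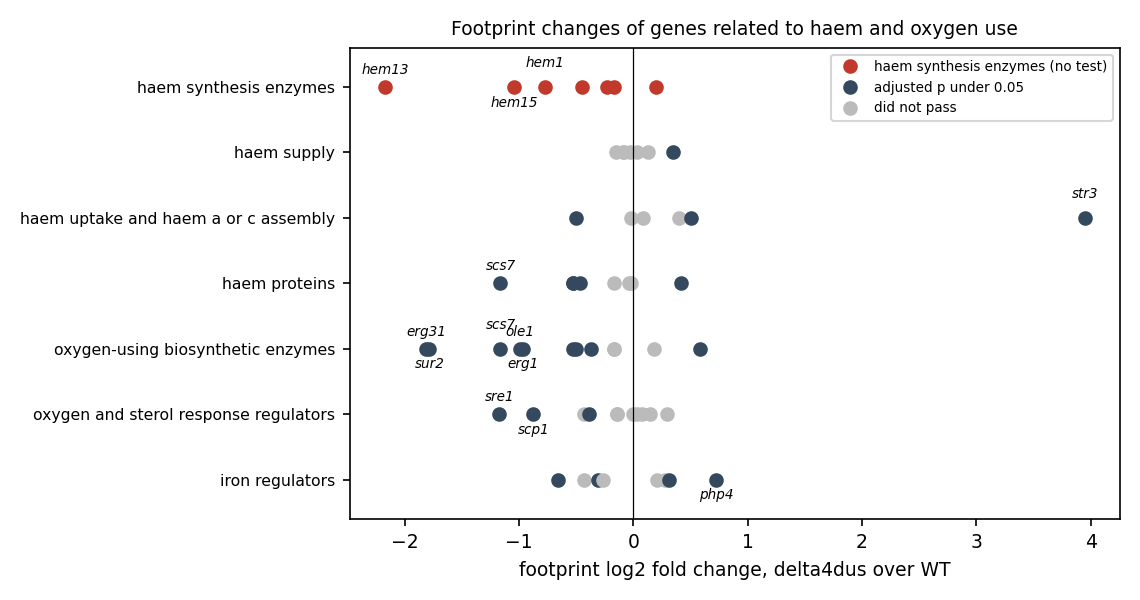
Footprint log2 fold changes (delta4dus over wild type) of the 7 haem synthesis genes (red, no test) and of 6 lists of related genes (dark where the adjusted p is under 0.05, grey otherwise), with names beyond 0.7 in size. Hem13 at -2.17 lies furthest left, and oxygen-using enzymes spread from -1.81 to 0.58. Str3, at 3.95, rests on 2 wild-type counts and passed the filter on low counts only through delta4dus, so a rise was the only call open to it.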

How the data were processed

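Footprints and total RNA were sequenced from delta4dus and wild-type cells, 3 libraries per genotype and assay. The authors deposited a table of raw counts for each assay, 1 row per transcript, made with Trimmomatic 0.36, Bowtie2 2.4, HISAT2 and featureCounts on ASM294v2, per the submitters' processing notes, with no strand setting given. The authors' deposited comparison table holds log2 fold changes and p-values, per the file headers, and names neither its tool nor its scaling. Its p-values were not used here.

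Genotype and letter tied all 12 count columns to samples, reading the header's "detla4dus" as delta4dus, and 0 were left over. Names, strands, coding lengths and overlaps came from the RefSeq annotation of ASM294v3, which matched 5107 of 5136 rows by systematic ID. Since its build differs from that of the files, no coordinates or sequences are given.

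Each assay was fitted alone over the whole table with the two-sided quasi-likelihood test of edgeR 4.0.16 in R 4.3.3, after filterByExpr and TMM scaling at their defaults, with Benjamini-Hochberg adjustment at 0.05. The ratio of footprints to total RNA was the genotype by assay interaction over 12 libraries. Alternatives were DESeq2 1.42.0, no filter, a mean of at least 50 counts, each library left out, the replicate letter as a block, and footprint libraries thinned to the shallowest total. Log2 CPM for likeness used a prior count of 2. The fits were tested on simulated data. Share intervals are exact (Clopper-Pearson, 95%), from scipy 1.17.1, and cover counting error only.

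The 7 genes, the 6 related lists and the naming rule were chosen with earlier results of these data known. Named besides the 7 were up to 4 genes of each list with the highest footprint CPM and the 5 genes most like hem13. All calls of a list were also named where they numbered 5 or fewer, and a few further genes after their values were seen (hem4, hem25, cyt1, the Dsc genes and the like). List symbols ups1, lsc1 and ccp1 were left out because the annotation gives them to other kinds of gene, and mcx1 matched no row.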

Additional observations from a re-analysis of the deposited data

How the results depend on the processing

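The hem13 footprint fold change stayed between -2.23 and -2.13 under DESeq2, no filter, a mean of at least 50 counts, thinning, the replicate block and every library left out. The median of the 7 footprint fold changes ranged from -0.55 to -0.34 with a library left out. The difference in hem13 share, -27.7 percentage points as reported, was -29.6 per kb of coding length and -30.7 without the highest other gene, which was hem2 in delta4dus and hem1 in wild type, so the sets differ between genotypes, and -28.3 to -26.9 with a library left out. The median ratio change, -0.33 as fitted, was -0.548 to -0.0945 with a library left out. With a mean of at least 50 counts required in both assays, no median ratio change was computed, since members were lost. Of the total RNA rows of these genes, 0 were called under each alternative with all libraries, and 0 to 1 with a library left out. Only hem3 and hem14 were tested with a mean of at least 50 counts, and DESeq2 gave hem15 no adjusted p.

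Footprint calls over all genes numbered 1289, 818 with DESeq2 and 792 after thinning, and 954 to 1203 with a library left out. Total RNA calls numbered 869, 494 with the replicate block, and 449 to 912 with a library left out. The cause was not tested. Whether the replicate letters pair the genotypes was not settled. Deviations of same-lettered libraries correlated at 0.0158 to 0.0733 in footprints and -0.285 to -0.00822 in total RNA. With the replicate block the hem13 footprint fold change was -2.18 and 0 of the 7 total RNA rows passed. Each delta4dus footprint library correlated best with the wild-type library of its letter, and none did in total RNA.

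Depth limits hem14 and hem15 most, with 94 and 146 footprint counts in wild type, and str3, which falls below the filter after thinning.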

Other observations

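The total RNA row of hem4, uroporphyrinogen-III synthase, had 318, 317 and 263 counts in delta4dus, against 487, 416 and 473 in wild type. It fell by 0.82 on the log2 scale (SE 0.0845, adjusted p = 1.36e-05). The hem4 footprints, at 22.4 CPM (134 counts) in delta4dus and 25.0 CPM (83 counts) in wild type, did not pass (log2 fold change -0.15). On the opposite strand spk1, a MAP kinase gene, overlaps 1525 bp of hem4. The spk1 row had 882 CPM in delta4dus and 950 CPM in wild type in total RNA, and 9.97 CPM in delta4dus and 9.10 CPM in wild type in footprints, and passed in neither. The part of strand assignment in the hem4 row was not tested.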
